A study of Mus musculus with 21 samples.

Results

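The comparison described here is the IL-2 dose step on day 10: mouse OT1 CD8 T cells expanded with IL-2 at 50 IU/mL against OT1 CD8 T cells expanded with IL-2 at 5 IU/mL. All cells of both libraries were used, 4937 at 50 IU/mL and 6382 at 5 IU/mL, together 11319 of the 106458 cells in the 21 libraries of the series. OT1 cells carry a transgenic T cell receptor against an ovalbumin peptide, so the cells share 1 antigen specificity. In both groups naive CD8 OT1 cells were activated in vitro with anti-CD3/anti-CD28 beads at day 0, then grown in wild type IL-2. The series also holds naive cells, cells without cytokine, and cells grown in IL-2v or IL-15, on days 3, 5 and 10, and its title concerns weaker IL-2 signalling, proliferation and stemness of T cells. Strain, age, sex and the number of mice behind a culture are not given in the sources used here. The treatment label of the 50 IU/mL library reads interleukin-3 at 50 IU/mL where the design text and the numbered sample titles point to IL-2, and it was taken as IL-2. The same mismatch stands in the labels of the 50 IU/mL IL-2 libraries of days 3 and 5, and the 50 IU/mL IL-15 libraries are labelled interleukin-16, so 6 labels go against their titles. The extraction text describes a sort of live CD44+CD45.1+CD8+ cells that had infiltrated tumours, the growth text a culture, and which of these applies to these libraries is not stated.

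Each dose is 1 library, so there is no replicate spread and no test between the doses. Levels are UMIs (unique molecular identifiers, which count captured RNA molecules) summed over all cells and given as CPM (counts scaled to a common total), with exact Poisson 95% intervals in brackets that cover counting error only. A difference is log2 of (CPM + 1) at 50 IU/mL over (CPM + 1) at 5 IU/mL, so a positive value is higher at 50 IU/mL, and low genes are understated by the added 1. A gene is called higher or lower where it is at least 2-fold apart, among the 5832 genes at 20 CPM or more in either library, which are the genes tested. A gene low in 1 library passes that filter only through the other, so the counts below only describe the lists. Shares of cells are after thinning each cell to 2000 UMIs, which kept 4693 cells at 50 IU/mL and 6083 at 5 IU/mL, with exact Clopper-Pearson 95% intervals in brackets that also cover counting error only. Fewer expressing cells and less RNA per cell cannot be told apart in a summed level, and the shares of cells are given beside it for that reason.

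The libraries held 27274115 and 29770050 UMIs at 50 and 5 IU/mL, with medians of 5065 and 4118 UMIs per cell. The medians over the series ran from 3016 to 5065, so the 50 IU/mL library had the highest. They shared 7 cell barcodes with each other and 2 to 15 with other libraries. All 7 CD8 T cell markers were detected in both, with a summed level of 4155 CPM at 50 IU/mL and 6814 at 5 IU/mL. Zbtb7b, the factor of the CD4 lineage, was at 27.3 and 8.33 CPM, Cd4 was at 0.0733 and 0.0672 CPM, and Foxp3 was listed at 0 and 0.0336. B cell, dendritic and erythroid markers summed to at most 8.80 CPM, and the 3 NK cell markers to 21.3 and 22 CPM, nearly all Klrb1c. The 6 myeloid markers summed to 15.5 CPM at 50 IU/mL and 6.62 at 5 IU/mL, mostly Cd68, with Lyz2, Csf1r and Adgre1 at 0 in both libraries. The 3 gamma delta T cell markers present in the tables summed to 104 CPM at 50 IU/mL and 333 at 5 IU/mL, mostly Trdc (82.6 and 294 CPM), and their part in the differences below was not tested.

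IL-2 signals through a receptor of alpha (Il2ra), beta (Il2rb) and common gamma (Il2rg) chains, with the kinases JAK1 and JAK3, to the transcription factor STAT5, and STAT5 switches on its own inhibitors, among them CISH and SOCS1. In CD8 T cells strong IL-2 signals are known to favour effector cells with granzymes and perforin, and weak signals to favour memory-like cells that keep TCF1, the product of Tcf7. PI3K and mTORC1 are also activated by IL-2 and act on glucose, amino acid and sterol metabolism.

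At 50 IU/mL 383 of the 5832 genes were at least 2-fold higher (6.57%) and 847 were at least 2-fold lower (14.5%). The median difference of all genes tested was -0.30 on the log2 scale, so a zero difference in CPM lies above the middle of the genes. TMM scaling moved that median to 0.04 and turned the split to 654 higher and 493 lower, and median of ratios scaling moved it to 0.07 with 685 higher and 473 lower. The list medians below moved up with it, so each is to be read beside -0.30. Each count of list members called is likewise to be read beside 6.57% higher and 14.5% lower. The 15 genes with the largest positive differences were Gzmg, Gzme, Gzmd, Spp1, Gzmf, Nupr1, Ly6g, Cstdc4, Csta2, Batf3, Scd1, Havcr2, Il24, Il10 and Prf1. The 15 with the largest negative differences were Tcf7, Gm26740, Cxcr3, Cd7, S1pr1, Klf2, Dyrk4, Sh3bp5, Id3, Arl5c, Dapl1, Gm2682, Tspan32, Ccr7 and Cd226. These 30 genes stayed at least 2-fold apart in the same direction under each of the 16 alternatives tried.

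**Figure D1:**
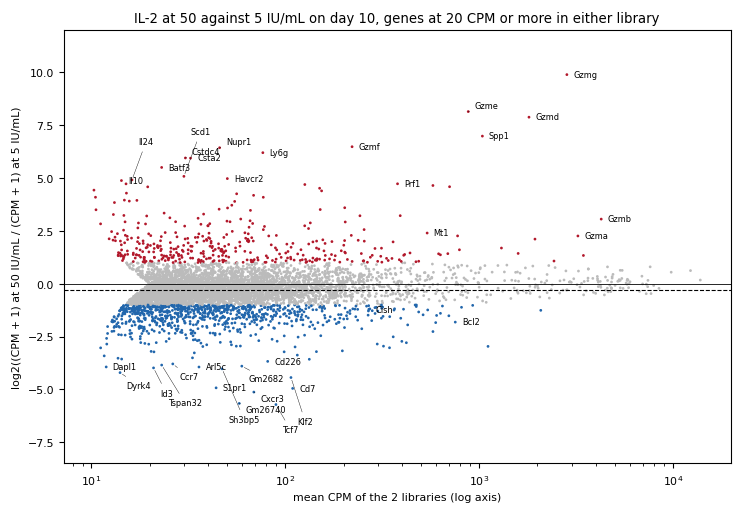
Each point is 1 of the 5832 genes at 20 CPM or more in either day 10 IL-2 library; the x axis is the mean CPM of the 2 libraries (log axis) and the y axis the log2 difference of (CPM + 1), 50 minus 5 IU/mL. Red and blue points are at least 2-fold higher (383) and lower (847) at 50 IU/mL, the dashed line is the median of all genes tested (-0.30), and the late granzymes stand at the top with Gzmg at 9.90.

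The most widely separated genes were those of cytotoxic granules. Granzymes are serine proteases that perforin delivers into target cells, and granzymes C to G and N lie in 1 cluster with granzyme B. Of the 19 genes in the list of granzymes and granule proteins 16 passed the 20 CPM filter, 10 were higher at 50 IU/mL and 2 lower, and their median difference was 2.28. The upstream sequence of the cluster genes is shown here because its members hold 4 of the 5 largest differences of all genes tested. The bases just before each gene start are from RefSeq (GRCm38.p6), all on the minus strand, at chr14:56262335-56262454 (Gzmb), chr14:56234658-56234777 (Gzmc), chr14:56132609-56132713 (Gzmd), chr14:56120626-56120745 (Gzme), chr14:56211418-56211527 (Gzmf) and chr14:56159580-56159699 (Gzmg). Capitals mark runs of 8 or more bases that the Gzmc, Gzmd, Gzme, Gzmf and Gzmg windows all hold, as printed. The Gzmd and Gzmf windows are shorter because bases inside the GENCODE gene model were left out.
Gzmb: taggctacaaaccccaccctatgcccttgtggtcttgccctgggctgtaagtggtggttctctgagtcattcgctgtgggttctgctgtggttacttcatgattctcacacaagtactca
Gzmc: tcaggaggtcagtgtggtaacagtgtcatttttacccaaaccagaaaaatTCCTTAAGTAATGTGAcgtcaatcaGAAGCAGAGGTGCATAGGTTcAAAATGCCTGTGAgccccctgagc
Gzmd: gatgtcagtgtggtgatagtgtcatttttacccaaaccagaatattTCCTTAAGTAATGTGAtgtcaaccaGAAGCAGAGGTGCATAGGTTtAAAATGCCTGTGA
Gzme: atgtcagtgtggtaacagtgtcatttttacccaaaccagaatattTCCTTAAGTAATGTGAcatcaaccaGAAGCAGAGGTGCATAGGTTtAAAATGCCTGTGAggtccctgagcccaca
Gzmf: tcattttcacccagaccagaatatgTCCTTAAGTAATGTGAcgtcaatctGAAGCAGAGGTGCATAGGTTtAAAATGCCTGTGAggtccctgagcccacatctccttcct
Gzmg: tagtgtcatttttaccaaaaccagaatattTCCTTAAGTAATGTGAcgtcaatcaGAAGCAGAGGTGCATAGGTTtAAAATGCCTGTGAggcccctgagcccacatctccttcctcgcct
Over the 250 bases before the start, aligned end to end, Gzmd and Gzme were 94.8% identical, Gzmf and Gzmg 82.4%, and Gzmc and Gzmd 80.5%, whereas Gzmb was between 43.8% and 49.8% identical to Gzmc, Gzmd, Gzme, Gzmf, Gzmg and Gzmn. Gzmn was likewise only 44.7% to 47.2% identical to Gzmc, Gzmd, Gzme, Gzmf and Gzmg. Gzma, which lies outside the cluster, was 44.9% to 49.4% identical to these genes, Gzmb and Gzmn. Values of that size were thus also found for a gene outside the cluster. The letters that STAT5 dimers recognise, a STAT site, are TTCNNNGAA on either strand. Such a site was found before 2 of the 18 matched genes of the granule list, Nkg7 and Gzmm. It was found in 7.02% of all 32851 promoters of that length. Here and below, a gene with several promoters counts where any of them holds the letters, whereas the share of all promoters counts each promoter. A match is a description of the letters in the window and no match says nothing of STAT5 at other sites.

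Gzmb, the granzyme used most by CD8 effector cells, was at 7618 CPM (7585 to 7650.3) at 50 IU/mL and 912 CPM (901 to 922) at 5 IU/mL, a difference of 3.06. Gzmg was at 5667 CPM (5639 to 5695) against 4.94 CPM (4.17 to 5.80), a difference of 9.90. Gzmd was at 3602 against 14.2 CPM, Gzme at 1752 against 5.17, and Gzmf at 438 against 3.90. In each of these 4 genes the difference was larger than in Gzmb, since the 5 IU/mL library held few of their UMIs. Gzmc was at 1353 and 55.1 CPM, a difference of 4.59. Gzmn, below the filter, was at 8.10 CPM and listed at 0 at 5 IU/mL, at least 80.4-fold higher against a floor of 3 counts in that library. The next genes of the chromosome 14 cluster, Ctsg (cathepsin G) and Mcpt8 (a basophil protease), were at 14.3 and 11.5 CPM at 50 IU/mL, and at 0 and 0.437 at 5 IU/mL. The order along the chromosome from Gzmb (chr14:56258838-56262260 in GENCODE vM21, GRCm38) is Gzmc, Gzmf, Gzmn, Gzmg, Gzmd, Gzme, Ctsg and Mcpt8, with starts 27.6 to 177 kb away. Of the runs of 60 bases in the last 500 bases of the transcript, the share also found in another gene was 13.6% for Gzmd, 11.6% for Gzme, 9.52% for Gzmg and 4.99% for Gzmf, so most of their sequence was distinct and a small part of the reads could be split between them.

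**Figure D2:**
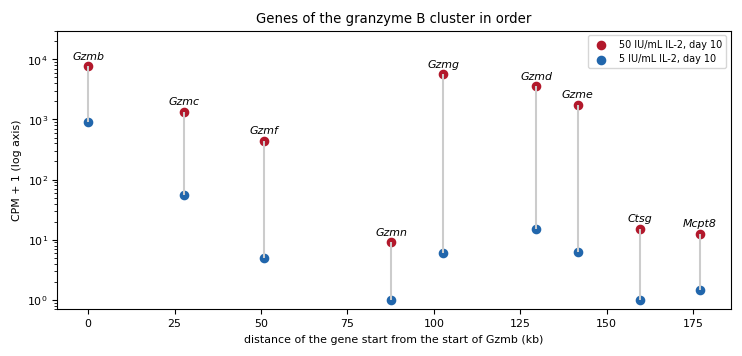
The x axis is the distance of each gene start from the start of Gzmb in kb, and the y axis is CPM + 1 (log axis) on day 10, with red points for 50 IU/mL, blue for 5 IU/mL and a grey line joining the pair. Every gene of the cluster drawn is higher at 50 IU/mL; Gzmg, Gzmd, Gzme and Gzmf lie between 3.90 and 14.2 CPM at 5 IU/mL and between 438 and 5667 at 50 IU/mL.

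Gzma, a tryptase-type granzyme encoded on chromosome 13 (chr13:113093825-113100981, minus strand), was at 5352 CPM (5325 to 5380.0) and 1114 CPM (1102 to 1126). Prf1 (chr10:61297833-61304680, plus strand), the pore-forming protein perforin, was at 732 CPM (722 to 742) against 26.6 CPM (24.8 to 28.5), a difference of 4.73. Serpinb9, the inhibitor that shields killer cells from their own granzyme B, was at 150.0 and 29.9 CPM, and Serpinb6b at 182 and 85.1. The granule genes Nkg7, Srgn (the granule proteoglycan serglycin) and Cst7 were less than 2-fold apart, at 0.56, 0.27 and -0.05. The 2 lower members were Fasl, the death ligand, at 23.4 and 77.7 CPM, and Ctsw (cathepsin W) at 166 and 379. Ctsw was less than 2-fold apart in 4 of the 16 alternatives. Gzmk and Gzmm, below the filter, were at 10.1 and 11.6 CPM and at 5.35 and 10.8. The higher members were thus granzymes A to G, perforin and 2 serpins, and the lower ones the ligand of the granule-independent route of killing and a cathepsin.

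Cell by cell, 98.8% of cells (98.4 to 99.1) had a Gzmb UMI at 50 IU/mL and 54.3% (53 to 55.5) at 5 IU/mL, and the unthinned shares were 99.3% and 66.2%. A UMI of granzymes C to G or N was found in 71.0% of cells (69.6 to 72.3) at 50 IU/mL and in 3.70% (3.24 to 4.20) at 5 IU/mL. These UMIs were uneven over the 50 IU/mL cells. The median cell had 3 of its 2000 UMIs, the 90th percentile 70 and the highest cell 387, and the 469 cells with the most held 55.2% of them. Perforin followed the same pattern of shares, with a Prf1 UMI in 48.7% (47.3 to 50.2) of cells and 4.92% (4.39 to 5.49). No cell type without these genes was measured in the same libraries, so the level that free RNA gives was not measured. The 29.0% of 50 IU/mL cells without a late granzyme UMI came from the same library.

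**Figure D3:**
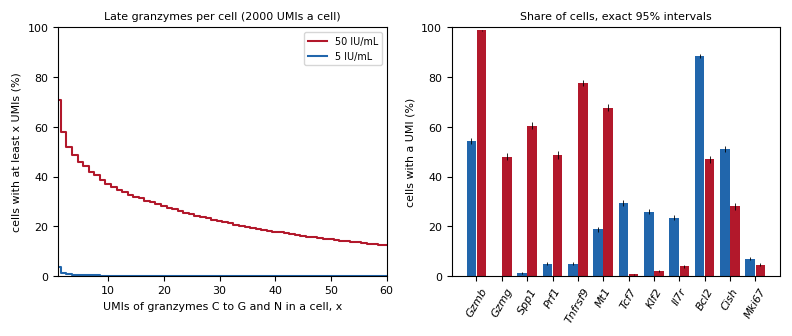
Left, the share of cells (y axis, %) with at least x UMIs of granzymes C to G and N together (x axis) after thinning to 2000 UMIs a cell; right, the share of cells (y axis, %) with a UMI of each of 12 genes with exact 95% intervals as error bars, red for 50 IU/mL (4693 cells) and blue for 5 IU/mL (6083 cells). The left curve starts at 71.0% at 50 IU/mL and 3.70% at 5 IU/mL, and on the right Gzmb to Mt1 are higher and Tcf7 to Mki67 lower at 50 IU/mL.

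Among secreted factors Spp1 had the largest difference on the log2(CPM + 1) scale, which understates low genes such as Il24 and Il10. Spp1 encodes osteopontin, a secreted phosphoprotein that binds integrins and CD44. The gene (chr5:104435118-104441050, plus strand, GENCODE vM21, GRCm38) shares 18.8% of its exon bases with the model Gm42793 on the same strand. It was at 2064 CPM (2047 to 2081) at 50 IU/mL and 15.3 CPM (13.9 to 16.7) at 5 IU/mL, with a UMI in 60.5% of cells (59.1 to 61.9) against 1.28% (1.01 to 1.60). Il10, an inhibitory cytokine, was at 28.6 CPM and listed at 0 at 5 IU/mL, at least 283-fold higher against a floor of 3 counts. Il24, a cytokine of the IL-10 family, was at 32.3 CPM from 880 UMIs against 0.101 CPM from 3 UMIs, a ratio of 320.2 with a counting interval of 109 to 1556. Ccl5 (RANTES, a chemokine stored by memory CD8 cells) went the other way, at 106 CPM (102 to 109.8) and 737 CPM (727 to 747). Tnf was at 24 and 77.9 CPM, and Tnfsf10 (the death ligand TRAIL) at 2.71 and 21.2. Xcl1, a chemokine for dendritic cells and below the filter, was listed at 0 at 50 IU/mL and at 16.8 CPM at 5 IU/mL, at least 152-fold lower against a floor of 3 counts. Ifng was at 6.93 and 6.62 CPM, also below the filter. Of the 18 cytokine and chemokine genes listed 6 passed the filter, 3 higher and 3 lower, with a median of 1.61 that turned to -0.06 when genes under 20 CPM were kept. Osteopontin is also made by myeloid cells, and the only myeloid marker above 1 CPM at 50 IU/mL was Cd68, at 14.9 and 3.73 CPM, in 7.39% and 1.65% of cells before thinning. The part of such cells in the Spp1 difference was not tested.

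Costimulatory and inhibitory receptors were split. Tnfrsf9 (4-1BB), a costimulator of activated T cells, was at 1112 CPM (1099.5 to 1125) against 43.3 CPM (40.9 to 45.7), with a UMI in 77.8% (76.6 to 79) of cells against 5.00% (4.46 to 5.58). Tnfrsf8 (CD30) was at 29.99 and 0.168 CPM. In contrast Cd27, a costimulator kept by naive and central memory cells, was at 19.8 CPM (18.2 to 21.5) and 246 CPM (241 to 252), and Cd226 (DNAM-1), an adhesion and killing receptor, at 11 and 151. Of the 13 genes of the TNF receptor and costimulator list 10 were tested, 2 higher and 3 lower. The third lower gene, Tnfrsf26, was at 9.17 and 25.4 CPM. Among inhibitory receptors 5 of 10 were tested, 3 higher and 1 lower. Havcr2 (TIM-3), found on terminally differentiated effector cells, was at 98.3 CPM (94.6 to 102) against 2.15 CPM (1.66 to 2.75). Entpd1 (CD39, which degrades extracellular ATP) was at 69.7 and 20.9 CPM, and Lag3 at 30.1 and 12.2. Cd160 was the lower one, at 28.7 and 123 CPM. Pdcd1 (PD-1) and Tigit were below the filter in both libraries, at 4.51 and 1.31 CPM and at 1.06 and 0.571, so the receptors of this list did not share 1 direction.

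The transcription factors listed for effector cells had a median of 1.13 over 12 tested of 16, with 7 higher and 1 lower, and the median was 0.48 when genes under 20 CPM were kept. Batf3, an AP-1 family partner, was at 46 CPM from 1255 UMIs against 1 UMI at 5 IU/mL, a ratio of 1369.8 with a counting interval of 245 to 54149. Zbtb32 was at 289 CPM (283 to 296) against 11.6 CPM (10.4 to 12.9), Irf8 at 279 against 69.1, and Nfil3 at 137 against 41.3. Prdm1 (BLIMP-1), the repressor that drives terminal effector differentiation, was at 26.5 and 7.63 CPM, and Bhlhe40 and Maf were each a little over 2-fold higher (1.13 and 1.12). The factors that define the type 1 effector programme did not follow. Eomes was at 82.9 and 113 CPM, and Tbx21 (T-bet), below the filter, at 4.62 and 18.3. Id2 and Runx3 were at 0.53 and 0.44, and Ikzf2 (Helios) was the 1 lower member, at 4.99 and 26.6 CPM.

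The remaining genes among the 15 highest include cystatins and a lymphocyte antigen. Csta2 and Cstdc4 belong to the stefin A family of cathepsin inhibitors, whose copies are near-identical, so the values of single members are uncertain. Csta2 was at 64.8 CPM against 2 UMIs at 5 IU/mL, a ratio of 965 with a counting interval of 267 to 7974, and Cstdc4 was at 61 CPM and listed at 0. Ly6g, a GPI-anchored protein best known as a marker of neutrophils, was at 152 CPM (148 to 157) against 1.07 CPM (0.735 to 1.52), with a UMI in 14% (13 to 15) of cells against 0.0822% (0.0267 to 0.192). Of the 6 myeloid markers Lyz2, Csf1r and Adgre1 were at 0 in both libraries, while Cd68 was at 14.9 and 3.73 CPM, in 7.39% and 1.65% of cells before thinning, and the list summed to 15.5 and 6.62 CPM. The part of such cells in the Ly6g difference was not tested.

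At the other end were genes of stem-like and naive T cells. The 13 of 17 listed genes that passed the filter were each at least 2-fold lower at 50 IU/mL, with a median of -2.94 against -0.30 over all genes, and of -2.11 with a pseudocount of 10. Tcf7 (chr11:52252371-52283014, minus strand) encodes TCF1, the factor that maintains stem-like memory cells, and was at 2.38 CPM (1.84 to 3.04) at 50 IU/mL and 177 CPM (172 to 181) at 5 IU/mL, the lowest difference of all genes tested (-5.71). A Tcf7 UMI was found in 0.703% (0.485 to 0.986) of cells at 50 IU/mL and 29.3% (28.2 to 30.5) at 5 IU/mL, and in 1.17% and 46.7% before thinning. Its partner Lef1 was at 70.7 and 179 CPM, and Id3, an inhibitor of E proteins linked to memory precursors, at 1.61 and 40.2. Klf2, the factor that switches on the genes for leaving tissue, was at 8.54 CPM (7.48 to 9.71) and 205.4 CPM (200.3 to 211). Its target S1pr1, the receptor that guides exit from lymph nodes, was lower as well, at 1.87 and 86.1 CPM. Ccr7, the lymph node chemokine receptor, was at 2.68 and 49.9 CPM, and Dapl1, a gene of quiescent T cells, at 0.587 and 23.2. Il7r, the receptor for the survival cytokine IL-7, was at 23.1 CPM (21.4 to 25) against 148 CPM (144 to 152), with a UMI in 3.92% (3.38 to 4.52) of cells against 23.5% (22.4 to 24.6). Satb1 and Foxp1, chromatin and quiescence factors, were at -1.63 and -1.72, and Foxo1 and Bach2 were nearest to the 2-fold line, at -1.12 and -1.06. Foxo1 fell within 2-fold in 5 and Bach2 in 6 of the 16 alternatives, and Lef1 in 3. Myb and Bcl6, 2 of the 4 members below the filter, were at 13.3 and 6.01 CPM and 2.20 and 1.75, so not every listed stem cell factor was lower. The median 5 IU/mL cell held 4 UMIs of the list per 2000, and the median 50 IU/mL cell 1.

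The 5 IU/mL library itself stood below naive cells in several of these genes. Naive cells of day 0 were at 471 CPM for Tcf7, 448 for S1pr1, 883 for Klf2, 241 for Ccr7 and 630.3 for Dapl1. In Cxcr3 and Cd7 the order was the reverse, with naive cells at 35 and 122 CPM.

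Receptors for movement, adhesion and stress ligands were split. Cxcr3, the chemokine receptor of type 1 effector and memory cells, was at 2.90 CPM (2.29 to 3.61) against 135 CPM (131 to 139). Ccr2 was at 156 and 381 CPM and Cxcr6, a receptor of tissue-resident cells, at 117 and 345. Of the 14 chemoattractant receptors listed 9 were below the filter, 3 were lower, 1 was within 2-fold and 1 was higher. The higher one was Ltb4r1, the leukotriene B4 receptor BLT1, at 375 CPM (368 to 382) and 30.03 CPM (28.1 to 32.1). Among killer lectin-like and NK-type genes 5 of 13 were tested, with 1 higher and 3 lower, and 8 were below the filter. Klrd1 (CD94) was at 104 CPM (100.5 to 108) against 694 CPM (685 to 704), Klrk1 (NKG2D) at 32.3 against 90.8, and Cd7 at 5.90 against 212. Fcer1g, the signalling adaptor of Fc receptors, was the higher one, at 113 and 16.9 CPM. In the adhesion list 2 of 12 tested were higher, 3 lower and 7 within 2-fold, beside 6.57% higher and 14.5% lower over all genes. Emilin2, an extracellular matrix glycoprotein, was at 279 and 23.5 CPM and Itgav (integrin alpha V) at 72 and 24.7, while Itga4, Actn1 and Actn2 were lower (-3.52, -3.50 and -3.22). Of the other genes among the 15 lowest, Dyrk4 (a kinase) was at 0.550 and 27.5 CPM, Sh3bp5 at 4.58 and 89.8, Arl5c (a small GTPase) at 3.52 and 68.2, Tspan32 (a tetraspanin) at 2.13 and 43.9, and the uncharacterised transcripts Gm26740 and Gm2682 at 1.28 and 114 and at 6.64 and 113.

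The T cell receptor complex was lower to a smaller degree. None of the 16 tested was higher by 2-fold, 5 were lower, and the median was -0.66, or -0.36 against that of all genes. The 2 CD8 chains differed in size, Cd8b1 at 174 and 426 CPM and Cd8a at 134 and 216. Trbc2, the constant segment of the receptor beta chain, was at 1228 and 2932 CPM, while Trbc1 was at 791 and 818. Cd5, a negative regulator whose level tracks receptor signalling, was the most separated, at 9.02 CPM (7.93 to 10.2) and 52.2 CPM (49.6 to 54.8). Cd3d, Cd3g, Lat and Zap70 were within 0.25 log2 units of no difference, and Thy1 was at 0.54.

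The genes of the IL-2 receptor, its JAK kinases and STAT5 did not share 1 direction. Of 7 listed 6 were tested, 2 higher, 1 lower and 3 within 2-fold. Their median was 0.32, and -0.35 when genes under 20 CPM were kept. Il2ra, the alpha chain, was at 299.9 CPM (293 to 306) against 106 CPM (102 to 109), with a UMI in 39.6% (38.2 to 41) of cells against 17.4% (16.4 to 18.4). Il2rb was at 536 CPM (527 to 545) against 256 CPM (251 to 262), and Il2rg at 163 against 207. Jak3 was at 0.98 and Jak1 at 192 and 596 CPM, the 1 lower member of 6 tested. Stat5a and Stat5b were at 11.2 and 18.5 CPM and at 13.7 and 27.8. None of the 12 genes in the list of STAT5 targets and feedback was 2-fold higher, 6 were lower, and the median was -0.96. Cish, an inhibitor of IL-2 receptor signalling induced by STAT5, was at 163 CPM (158 to 168) against 377 CPM (370.0 to 384). Socs1, a second induced inhibitor, was at 71.9 CPM (68.7 to 75.1) against 524 CPM (516 to 533), with a UMI in 13.1% (12.1 to 14.1) of cells against 61.8% (60.6 to 63.1). Bcl2, the survival protein, was at 333 CPM (326 to 340.2) against 1173 CPM (1161 to 1186), and Myc, a driver of growth, at 24.4 CPM (22.6 to 26.3) against 200.3 CPM (195 to 205.5). Osm (oncostatin M) and Socs3 were the other lower members, at -1.61 and -1.85. Pim1 and Pim2 (survival kinases), Socs2, Lta and Ccnd2 were less than 2-fold apart, between -0.72 and 0.39, and Xbp1 was at 0.61. Cish was within 2-fold in 5 of the 16 alternatives, TMM and median of ratios scaling among them, while Socs1, Bcl2 and Myc stayed lower by over 2-fold in all. A STAT site was found before 2 of the 8 matched genes of the list, Lta and Socs3, against 7.02% of all promoters.

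Among the other genes of the BCL2 family, some of which protect cells and some of which kill them, 8 of 14 were tested. Of these 1 was higher and 1 lower, beside 6.57% higher and 14.5% lower over all genes. Mcl1 was at 119 and 245 CPM, within 2-fold in 6 alternatives. Bcl2a1b was the higher one (1.12), but 82.1% of the 60-base runs at its transcript end also occur in Bcl2a1d, so the copies cannot be told apart. Bcl2l11 (BIM, the main killer protein of cytokine-starved T cells) was at 44.6 and 86.4 CPM and Bcl2l1 (BCL-XL) at 58.1 and 41.5. Among other cytokine receptors 1 of 11 tested was higher and 5 lower. Il12rb1 was at 103 and 22.3 CPM, whereas Il18r1 was at 28.9 and 114, Ifngr1 at 163 and 476, and Ifnar1 at 28.5 and 86.6.

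Genes of the cell cycle were lower at 50 IU/mL on day 10. In the list of 45 G2 and mitosis genes 16 were below the filter, 27 of 29 tested were at least 2-fold lower and none higher, with a median of -1.74, and in the list of 43 genes of DNA replication and S phase 24 were below the filter, 12 of 19 tested were lower and 1 higher (Rfc3), with a median of -1.16. Mki67, the proliferation antigen Ki-67, was at 36.8 CPM (34.6 to 39.2) against 109 CPM (105 to 113), and Top2a, the topoisomerase of dividing cells, at 61.7 CPM (58.8 to 64.7) against 171 CPM (167 to 176). Ccnb2 and Cdc20, which act in mitosis, were at 13.4 against 71.5 CPM and at 8.25 against 45.9. Mcm3, a subunit of the replicative helicase, was at 15.9 against 50.9, and Rrm2, for making deoxynucleotides, at 9.13 against 37.9. Cells with a Mki67 or Top2a UMI were 8.14% (7.37 to 8.96) at 50 IU/mL and 11.7% (10.9 to 12.6) at 5 IU/mL after thinning, and 13.4% and 18.2% without thinning. Without the cells above 2 times the median UMIs of their library the shares were 7.78% (7.00 to 8.62) and 8.62% (7.90 to 9.39), and the median of the G2 and mitosis list was -0.85. The cell cycle difference was thus smaller without the cells of most UMIs, 350 cells at 50 IU/mL and 563 at 5 IU/mL. The cut followed the median of each library, 5065 UMIs at 50 IU/mL and 4118 at 5 IU/mL, so it lay at a lower depth at 5 IU/mL. The part of this unequal cut was not tested, nor whether the cells left out are doublets. Mcm5 lay at -1.06 with all cells and at 0.0051 without those cells. With no cells left out for their UMIs above the median, 26.5% of thinned cells at 50 IU/mL had at least 3 UMIs of the cell cycle lists. At 5 IU/mL the share was 53.8%.

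Inhibitors of the cycle were split. Of the 15 genes in the list of p53 targets and CDK inhibitors 13 were tested, 4 higher and 3 lower, with a median of 0.40. Not all of the lower ones are named here. Cdkn1a (p21) was at 361 CPM (354 to 368) against 46.7 CPM (44.2 to 49.2), Cdkn2a (p16 and p19ARF) at 105 against 23.5, and Cdkn2b (p15) at 61.7 against 14.4. Gadd45g was also higher, at 361 against 133. Cdkn1b (p27), the inhibitor of quiescent T cells, was lower at 35.2 and 102 CPM, as was Cdkn2c (p18) at 6.82 and 34.3. The p53 targets Mdm2, Phlda3 and Zmat3 were at -0.19, 0.40 and 0.40. Cdk6, the partner of D cyclins, was at 313 and 87.6 CPM, Cdk4 at 65 and 125, and Ccnd2 and Ccnd3 at 0.39 and 0.30. Of the 5 tested in the list of D cyclins and CDKs, Cdk6 was the 1 higher and Cdkn3, a phosphatase of CDKs, the 1 lower, at 8.95 and 26.8 CPM. Higher p21, p15 and p16 genes and lower mitotic genes were therefore found in the same library, alongside higher Cdk6.

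The amino acid response was among the groups that were higher at 50 IU/mL. ATF4 is a transcription factor translated when amino acids are short or the endoplasmic reticulum is stressed, and mTORC1 also raises it in growing T cells. Of its 15 listed genes 11 were tested, 10 were at least 2-fold higher and none lower, with a median of 2.08. Atf4 was at 411 CPM (403 to 418) against 101 CPM (97 to 104), and Asns, the asparagine synthetase, at 146 CPM (142 to 151) against 7.63 CPM (6.67 to 8.68). Nupr1, a stress-induced chromatin protein, was at 91.6 CPM from 2498 UMIs against 2 UMIs at 5 IU/mL, a ratio of 1363 with a counting interval of 377 to 11263. Trib3, a pseudokinase of the pathway, was at 122 against 10.1 CPM and Ddit3 (CHOP) at 220.0 against 31.9. Cebpg was the member within 2-fold (0.86). Chac1, Atf3 and Vldlr, below the filter, were at 19.6, 15.9 and 12.6 CPM against 0.0672, 0.403 and 2.22, and Fgf21 was listed at 0 in both. The letters TGATGNAA, an ATF4 site, were found in the 250 bases before 6 of the 14 matched genes of the list and in 3.45% of all promoters. The 6 were Asns and Nupr1, and Atf3, Chac1, Fgf21 and Vldlr, which were below the filter. The windows of Asns and Nupr1 are shown because these genes were the most separated of those that passed the filter, from RefSeq (GRCm38.p6, minus strand), chr6:7693214-7693243 for Asns and chr7:126625562-126625591 for Nupr1, with the site in capitals on either strand 23 and 110 bases before the RefSeq start. Both windows lie inside the longest GENCODE gene models, so they are upstream of the RefSeq start only.
Asns: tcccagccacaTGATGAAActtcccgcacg
Nupr1: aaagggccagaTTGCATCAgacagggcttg
Amino acid transporters and the serine and one-carbon enzymes were higher too, 9 of 12 tested, with a median of 1.53. Slc7a5 (LAT1), which imports leucine and other large neutral amino acids, was at 244 CPM (238 to 249.8) against 8.43 CPM (7.42 to 9.54), and its partner chain Slc3a2 at 226 against 71.6. Psat1 and Phgdh of serine synthesis were at 136 against 19.9 and at 259 against 103, and Mthfd2 of mitochondrial one-carbon metabolism at 161 against 43. Psph, the last step of serine synthesis, was at 40.1 and 48.2 CPM, and the cytosolic Mthfd1 and Shmt1 were below the filter. An ATF4 site was found before 1 of the 14 matched genes of this list, Pycr1, which was below the filter.

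Sterol synthesis differed about as much. Of the 23 genes listed 18 were tested and 14 were at least 2-fold higher, none lower, with a median of 2.01. SREBP2 drives these genes when sterols are short, and growing cells use them to make membrane. Hmgcs1, the entry step, was at 227 CPM (222 to 233) against 36.2 CPM (34.1 to 38.5). Cyp51, a demethylase of the later steps, was at 133 against 21.6 CPM. Fdps was at 437 against 73, and 26.7% of its exon bases overlap the gene model Gm43738 on the same strand. Ebp was the 1 member below zero, at 66.7 and 111 CPM. In cells with a Mki67 or Top2a UMI the median of the list was 1.30, the lowest of the alternatives. In fatty acid synthesis 4 of 9 tested were higher. Scd1, the desaturase that makes oleate, was at 59.2 CPM (56.4 to 62.2) against 0.773 CPM (0.490 to 1.16), Scd2 at 364 against 73.7, Fads2 at 24.3 against 1.61 and Fasn at 57.6 against 27.1. Elovl5 and Elovl6, which lengthen fatty acids, were at -0.70 and -0.72, and the desaturase Fads1, below the filter, was at 11.6 and 13.4 CPM. Fatty acid oxidation had 1 higher and 2 lower of 13 tested, beside 6.57% higher and 14.5% lower over all genes. Its median of -0.25 was positive under both TMM and median of ratios scaling.

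Glycolysis and the hypoxia response were higher by less. Of 17 glycolysis genes tested 3 were at least 2-fold higher, Slc2a3 (the glucose transporter GLUT3) at 222 against 55.5 CPM, Hk2 (hexokinase 2) at 85.2 against 25.6 and Aldoc at 144 against 61.2. The median was 0.77 and 16 of the 17 were above zero. The summed level of the list was 17252 CPM at 50 IU/mL and 10631 at 5 IU/mL. Ldha, which makes lactate, was at 1615 and 886 CPM, and Slc2a1 (GLUT1) at 45.8 and 34.8. Of 11 hypoxia response genes tested 7 were higher and 1 lower, with a median of 1.17. Ero1l, an oxidase of disulphide bond formation, was at 708 CPM (698 to 718) against 74.9 CPM (71.9 to 78.1), and Bnip3, a mitophagy receptor, at 208 against 92.2. Pdk1, which closes the entry of pyruvate to mitochondria, was the lower one, at 45.1 and 93.1, but within 2-fold in 6 alternatives.

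Both tested metallothioneins, small proteins that bind zinc and copper, were higher. Mt1 was at 908 CPM (897 to 919) against 171 CPM (166 to 176) and Mt2 at 439 CPM (431 to 447) against 46.3 CPM (43.8 to 48.8), with Mt1 UMIs in 67.8% (66.4 to 69.1) of cells against 18.9% (17.9 to 19.9). Of the Mt2 exons 73.5% overlap Gm45774 on the opposite strand, and since strand counting is not stated, reads of that pair cannot be told apart. The factor MTF1 binds metal response elements, and both promoters are shown because the core letters TGCACNC or TGCGCNC (either strand, in capitals) occur in both, once before Mt1 and at 3 sites before Mt2, and in 21.4% of all promoters. The sequences are from RefSeq (GRCm38.p6, plus strand), chr8:94178839-94179081 for Mt1 and chr8:94172368-94172617 for Mt2.
Mt1: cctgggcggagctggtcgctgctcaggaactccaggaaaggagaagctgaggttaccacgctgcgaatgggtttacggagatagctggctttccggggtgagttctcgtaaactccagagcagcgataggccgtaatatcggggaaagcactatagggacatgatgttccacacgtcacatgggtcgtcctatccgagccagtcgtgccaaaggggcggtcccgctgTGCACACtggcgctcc
Mt2: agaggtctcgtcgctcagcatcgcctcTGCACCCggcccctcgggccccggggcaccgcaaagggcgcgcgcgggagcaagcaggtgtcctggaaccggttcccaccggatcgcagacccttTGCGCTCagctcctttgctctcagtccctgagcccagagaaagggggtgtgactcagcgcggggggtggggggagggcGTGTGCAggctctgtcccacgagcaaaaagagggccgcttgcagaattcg
Mt3, below the filter, was at 10.4 and 0.302 CPM. The zinc exporter Slc30a1, a second gene that zinc switches on through MTF1, was also below the filter, at 4.99 and 6.32 CPM. Its window also holds the core letters, and the part of zinc or MTF1 was not tested.

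Most chaperones were less than 2-fold apart. In the endoplasmic reticulum 4 of 14 tested were higher and none lower, with a median of 0.72: Hspa5 (BiP) at 479 against 148 CPM, Calr at 443 against 179, Hsp90b1 at 464 against 216 and Hyou1 at 20.2 against 7.26. Dnajb9 and Herpud1, which serve degradation from that compartment, were at -0.13 and -0.28. The cytosolic heat shock list had a median of -0.08, which was positive under TMM and median of ratios scaling, with none of 15 higher and 1 lower. Hsp90aa1 was at 535 and 269 CPM and Chordc1, the lower one, at 26.7 and 63. Hspa1a, the inducible HSP70, was at 0.183 and 0.168 CPM on day 10, against 65.8 and 128 with 50 IU/mL on days 3 and 5.

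Interferon-stimulated genes were lower as a group but not throughout. Of 28 listed 19 were tested, 2 higher and 9 lower, with a median of -0.97. Ifi203 was at 19.5 CPM (17.8 to 21.2) against 211 CPM (206 to 217), Ifi47 at 38.6 against 213 and Slfn2, which guards T cell quiescence, at 77.1 against 327. Irf1, a factor of the interferon response, was at 34.8 against 106. Isg15 and Isg20 were the 2 higher genes, at 70.4 against 23.6 and 165 against 49.1. The interferon-induced membrane proteins were higher, Ifitm1 at 4950.0 CPM (4924 to 4977) against 1953 CPM (1938 to 1969) and Ifitm3 at 587 against 229.7, with Ifitm2 at 1992 against 615, whose exons overlap Gm45717 by 40.9% on the same strand. The GIMAP GTPases, which support survival of resting lymphocytes, were all below zero, with 6 of 8 lower and a median of -1.30. Gimap4 was at 273 and 755 CPM and Gimap3 at 175 and 516. Antigen presentation by class I molecules had none of 17 higher, 1 lower (Psmb10 at -1.02, within 2-fold in 10 alternatives) and a median of -0.42, or -0.12 against that of all genes.

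Among galectins, annexins and surface memory proteins 3 of 16 tested were higher and none lower. Lgals3 (galectin 3) was at 3156 CPM (3135 to 3177) against 727 CPM (717 to 737), Lgals1 at 3303 against 1564 and Anxa2 at 911 against 351. Immediate early genes had 1 higher and 5 lower of 14 tested, with 11 below the filter. Egr1 was at 10.2 and 55.5 CPM, Klf6 at 77.5 and 289, and the quiescence gene Btg1 at 277 and 699. Dusp5 was the higher one, at 87.6 and 39.5. In the list of oxidative stress genes 7 were tested, 2 higher (Sqstm1 at 1.46, Gsr at 1.10) and 2 lower (Gclm at -1.29, Txnip at -1.48). Txnip, an inhibitor of glucose uptake, was at 140.5 and 394 CPM.

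Few genes for ribosomes and respiration were 2-fold apart, and their list medians lay above the -0.30 of all genes. The 83 tested cytosolic ribosomal protein genes had a median of 0.07 and took 32.5% of UMIs at 50 IU/mL and 31.95% at 5 IU/mL, and the 1 called higher, Rps19bp1, is a ribosome biogenesis gene that shares the name. Within the group Rpl29 was at 1773 and 2831 CPM and Rpl31 at 1054 and 572. The 20 tested genes of the ribosome biogenesis list had 3 higher and a median of 0.50, which is 0.79 above that of all genes. Odc1, an enzyme of polyamine synthesis that the list counts as a member, was at 186 and 90.2 CPM. The 79 nuclear genes of oxidative phosphorylation had a median of 0.22, or 0.52 above that of all genes, with 4 higher and 1 lower, Uqcrq (complex III) being the most separated at 575 and 145 CPM. Of the 13 genes of the mitochondrial genome 3 were higher, the short mt-Nd4l, mt-Atp8 and mt-Nd6, while mt-Co1 was at 7851 and 7011 CPM. Transcript length moved with the difference across genes: the 581 genes with the shortest transcripts, up to 1232 bases, had a median of 0.02 and the 581 with the longest -0.41. The part of length in these small differences was not tested.

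**Figure D4:**
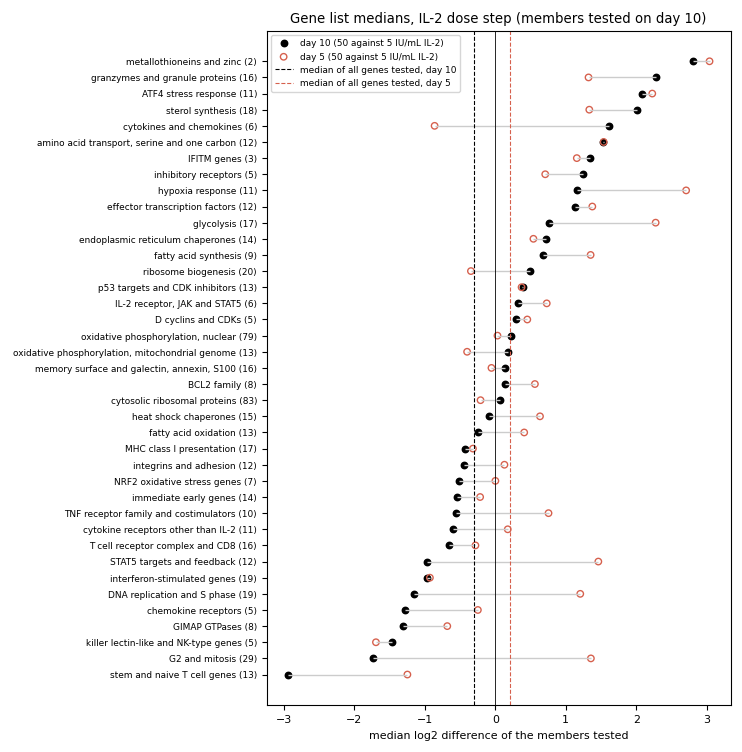
The x axis is the median log2 difference, 50 minus 5 IU/mL, of the members tested in each of 39 gene lists (rows, with the number tested on day 10); black points are day 10, open red circles day 5 and the dashed lines the medians of all genes tested, -0.30 and 0.22. Stem and naive T cell genes are lowest on day 10 (-2.94), and the lists of cytokines, STAT5 targets, TNF receptors, S phase and G2 and mitosis lie over 0.5 from zero on opposite sides on the 2 days.

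The same dose step on earlier days came from other libraries. The 50 IU/mL library of day 5 had the fewest cells (3251) and UMIs (10590998) of the series, and the lowest median, 3016 UMIs per cell. The alternatives that choose cells were run on the day 10 libraries only. On day 5 it gave 814 higher (14.1%) and 196 lower (3.4%) of 5765 genes, with a median of 0.22, and on day 3 there were 211 higher (3.48%) and 120 lower (1.98%) of 6057, 5.46% together. Of the 383 genes higher on day 10, 186 (48.6%) were also higher on day 5, which is 22.9% of those higher on day 5. Of the 847 lower genes 116 (13.7%) were also lower on day 5, 59.2% of those lower then. In opposite directions 1 gene, Gm12840, was higher on day 10 and lower on day 5 (0.261% of the 383). Another 51 were lower on day 10 and higher on day 5. These are 6.02% of the 847, below the 14.1% that were higher among all genes tested on day 5. Their largest differences were in Map3k8, Ndc80, Ccnb2, Hmmr and Fbxo5. Map3k8, a kinase upstream of ERK, was at 32.2 and 91.5 CPM with 5 and 50 IU/mL on day 5, and at 73.9 and 13 on day 10. The other 4 named act in cell division, and Bcl2, Cish, Fasl, Tnf and Klf6 were also among the 51.

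Among metabolic lists, glycolysis, hypoxia, ATF4, amino acid transport and sterol genes had positive medians on days 5 and 10. The glycolysis median was 2.28 on day 5 and 0.77 on day 10, and the hypoxia median 2.71 and 1.17. The ATF4 median was 2.23 and 2.08 and that of amino acid transport 1.54 and 1.53. The sterol median was 1.33 and 2.01, and on day 3 it was -0.0084 with none of 21 tested higher. Fatty acid oxidation had medians of 0.41 on day 5 and -0.25 on day 10, and the mitochondrial genome -0.40 and 0.18. With 50 IU/mL Gzmg and Spp1 were near 0 before day 10, and the other late granzymes are not given for those days. Gzmg with 50 IU/mL was at 0 CPM on day 3, 2.64 on day 5 and 5667 on day 10, and with 5 IU/mL at 0, 0 and 4.94. Spp1 with 50 IU/mL was at 0.909, 6.80 and 2064 CPM. Gzmb was already apart on day 5, at 1689 CPM against 272. Tcf7 with 50 IU/mL was at 50.5, 69.5 and 2.38 CPM, and with 5 IU/mL at 188, 295 and 177, so the low dose library was near its day 3 level while the high dose library was not.

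Of the STAT5 target list 7 of 10 tested were at least 2-fold higher at 50 IU/mL on day 5 and none on day 10, when 10 of 12 were below zero. Cish, Bcl2 and Myc are given as examples of members whose order of the doses reversed between those days. Cish with 5 IU/mL was at 14 CPM on day 3, 17.2 on day 5 and 377 on day 10, and with 50 IU/mL at 147, 97.3 and 163. Bcl2 with 5 IU/mL was at 133, 105 and 1173 CPM, and with 50 IU/mL at 557, 449 and 333. Myc with 50 IU/mL was at 225, 151 and 24.4 CPM, and with 5 IU/mL at 111, 95.6 and 200.3. Cish was higher on day 10 than on day 5 at both doses, and far more so at 5 IU/mL, while Bcl2 and Myc were higher at 5 IU/mL and lower at 50 IU/mL. Cish and Bcl2 thus stood highest in the 5 IU/mL library of day 10, and Myc lowest in the 50 IU/mL library of day 10. Mki67 was at 430.2 CPM with 50 IU/mL and 112 with 5 IU/mL on day 5, and at 36.8 and 109 on day 10, where the low dose was near its day 5 level. Whether these differences between days exceed the spread between cultures was not tested, since each point is 1 library.

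**Figure D5:**
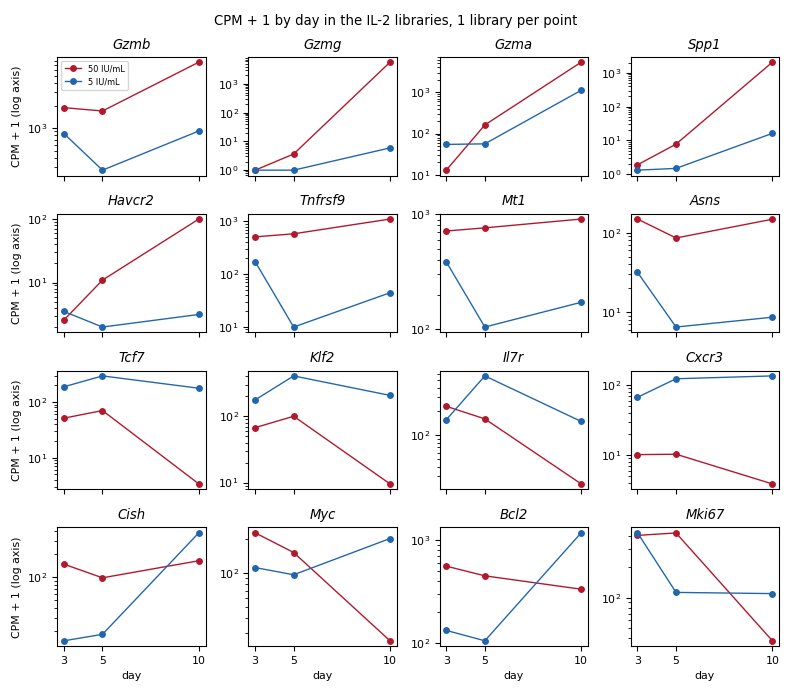
Each panel is 1 gene, with CPM + 1 (log axis, scaled per panel) against day of culture; red is IL-2 at 50 IU/mL, blue IL-2 at 5 IU/mL, and each point is 1 library with lines that only join the points. The upper 2 rows are higher at 50 IU/mL on day 10, the third row lower, and in the last row Cish, Myc and Bcl2 cross between day 5 and day 10 and Mki67 likewise.

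The IL-2v and IL-15 dose steps on day 10 share no library with this one. IL-2v, which the treatment labels call a mutant IL-2bg, gave 282 higher (5.02%) and 345 lower (6.14%) of 5618 genes. Of the 383 genes higher with IL-2, 151 (39.4%) were higher with IL-2v, and of the 847 lower 169 (19.95%) were lower, and 0 and 4 were in opposite directions. With IL-15 181 were higher (3.33%) and 129 lower (2.37%) of 5437, 5.7% together. Shared in direction with IL-2 were 40 (10.4% of the 383) and 47 (5.55% of the 847). In opposite directions were 2 (0.522% of the 383) and 31 (3.66% of the 847). Gzmg was at 338 and 0.123 CPM with IL-2v at 50 and 5 IU/mL and listed at 0 with IL-15 at both doses. Spp1 was at 501 and 1.10 with IL-2v and at 0.0628 and 0 with IL-15. Tcf7 was at 17.1 and 95.6 CPM with IL-2v and at 144 and 369 with IL-15. Across these 6 libraries the 50 IU/mL IL-2 library therefore held the most Gzmg and Spp1 and the least Tcf7.

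The medians of stem, granule and ATF4 genes kept their sign and were close in size in cells with and without a Mki67 or Top2a UMI. That of stem and naive genes was -2.62 in cells with such a UMI and -3.02 in cells without, that of granule genes 2.14 and 2.30, and that of ATF4 genes 2.41 and 2.05. The median of sterol genes was further apart, at 1.38 and 2.23 over the members tested in all cells. Among 50 IU/mL cells, 61.3% of the 382 cycling cells had a late granzyme UMI with a mean of 10.0, and 71.8% of the 4311 others with a mean of 22.2. A single such UMI was all that 13.1% of the 50 IU/mL cells had, and with no background share measured these shares are of cells with a UMI and not of cells that express the genes.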

How the data were processed

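Single-cell RNA was measured in 21 libraries, 1 per condition, and the authors deposited raw UMI counts per gene and cell, 17516 genes in each table. Cell Ranger, Seurat 3.0.2 and 4.0.1 and the mm10 build are named in the submitters' processing notes, without roles; strand and the annotation used for counting are not given in the sources used here. The deposited cells hold at least 1002 UMIs and under 10% mitochondrial UMIs, and no further filter on cells was applied. No cell of the series held more than 13407 UMIs, and the highest cells had 13385 at 50 IU/mL and 13392 at 5 IU/mL on day 10 with IL-2. The part of an upper limit on UMIs in the differences, those of the cell cycle among them, was not tested. No doublet caller was run; leaving out cells above 2 times the median UMIs was an alternative. Columns of other series numbered 0.

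From the counts, UMIs were summed over the cells of a library and scaled to CPM by the total of all UMIs, with a pseudocount of 1, a filter of 20 CPM in either library and a threshold of 2-fold. With 1 library per condition no test was run. Intervals are at 95%, and a floor of 3 counts stands in for 0. Cells were thinned to 2000 UMIs each for shares of cells, with a fixed seed. The 15 highest and 15 lowest genes were named, then within each of 39 lists the 4 with the largest differences and members needed to account for the list, and the 5 most separated genes opposite on day 5. Map3k8, Bcl2, Cish, Fasl, Tnf and Klf6 on day 5, Rpl29, Rpl31 and mt-Co1 were chosen after their values were seen. The comparison and the gene lists were chosen with earlier results of these data known. Gene positions and lengths are from GENCODE vM21 and upstream sequences from RefSeq, both GRCm38. edgeR 4.0.16 (TMM) and DESeq2 1.42.0 (median of ratios) in R 4.3.3 gave alternative scaling factors only. Python 3.11.15, numpy 2.4.6, scipy 1.17.1, pandas 2.3.3 and matplotlib 3.10.9 were used. The 2-fold rule was tried on simulated counts with planted changes and counting error only, so variation between cultures was not part of that trial. Some members of the lists are counted in them but not reported here by name.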

Additional observations from a re-analysis of the deposited data

Results flagged for a closer look

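Several gene lists had medians of opposite sign in the day 10 and day 5 dose steps, each step being 1 library against 1, so the difference between the days was not tested. The median log2 difference of STAT5 targets and feedback was -0.96 on day 10 and 1.46 on day 5. That of G2 and mitosis genes was -1.74 and 1.36, and that of DNA replication and S phase genes -1.16 and 1.21. That of TNF receptors and costimulators was -0.55 and 0.76. On day 10 it was -0.26 against that of all genes, and -0.11 under median of ratios scaling. The summed level of that list went the other way on day 10, at 1661 CPM at 50 IU/mL and 907 at 5 IU/mL. The median of cytokines and chemokines was 1.61 over 6 genes on day 10 and -0.86 over 2 genes on day 5. This last pair of medians rests on few and partly different genes.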

How the results depend on the processing

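No paired analysis was possible because each condition is 1 library. The counts of 383 higher and 847 lower genes became 654 and 493 with TMM scaling, 685 and 473 with median of ratios scaling, 594 and 491 when centred on the median, and 588 and 488 when centred by transcript length. With a pseudocount of 10 there were 518 lower, and without a filter on low genes 851 higher and 1667 lower. The median of -0.30 became 0.0379, 0.0651, 0 and 0 under the 4 scalings in that order and -0.15 without the filter. Without the filter the cytokine median was -0.0618, and without cells above 2 times the median UMIs Mcm5 was at 0.0051. Centring and the transcript length alternative were chosen after seeing the data.

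Of the overlaps with IL-2 on day 5, genes higher on day 10 and lower on day 5 numbered 4 with TMM, 4 with median of ratios, 0 with a pseudocount of 10 and 3 without the filter, and the reverse 27, 27, 27 and 152. Without the filter 440 were higher and 297 lower on both days. For IL-2v on day 10, genes higher with IL-2 and lower with IL-2v numbered 2 with TMM, 2 with median of ratios and 2 without the filter. With a pseudocount of 10, 99 were lower in both and 2 lower with IL-2 and higher with IL-2v, and without the filter 440 were higher in both, 395 lower in both and 14 lower then higher. For IL-15, genes higher in both were 65, 65 and 102 with TMM, median of ratios and no filter, and those lower in both 29, 28 and 113, and 30 with a pseudocount of 10. Genes higher with IL-2 and lower with IL-15 were 0 with a pseudocount of 10 and 9 without the filter, and the reverse 172 without the filter.

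Cycling cells at 50 IU/mL were 5.33% when thinned to 1000 UMIs, 13.4% without thinning and 26.5% when 3 UMIs of the cell cycle lists were asked for. At 5 IU/mL they were 8.01%, 18.2% and 53.8%, and 8.62% without cells above 2 times the median UMIs. The cause was not tested for any of these. With 1 library per dose the depth limits counting error only, and differences between cultures of 1 condition were not measured.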
